A study of Homo sapiens with 3 samples.

Results

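Mitotic spindle and kinetochore genes encode the machinery that condenses chromosomes, attaches them to spindle microtubules, checks the attachments and separates the daughter cells. Cyclin B with the kinase CDK1 drives entry into mitosis, and the transcripts of these genes are known to accumulate in G2 and M phase through repressing and activating complexes of the DREAM, B-MYB and FOXM1 type at their promoters. In colorectal carcinoma cells, as in other dividing cells, their summed level is widely read as a sign of proliferation. A list of 44 such genes, defined by their names, was read on the arrays below out of 41749 gene names. Each gene was represented by its brightest probe over the 3 arrays, and 43 of the 44 were measured. All 43 were well above background on all 3 arrays, so no change given for them is a bound.

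The cells were HCT116, an established line of human colorectal carcinoma, and their RNA was read on 1-colour Agilent arrays with probes of 60 bases. The groups were PRMT1-NC, PRMT1-KD1 and PRMT1-KD2 (NC, KD1 and KD2 below), with 1 array each. KD1 and KD2 were HCT116 cells in which PRMT1, the main enzyme for asymmetric dimethylation of arginine, had been knocked down by RNA interference, with siRNA-1 and siRNA-2 and Lipofectamine 3000 as the protocol names them, and NC was the negative control. The labels name KD1 S12 and KD2 S23 in their titles and do not tie either to 1 of the siRNA sequences, nor do they give the time between transfection and harvest. With 1 array per group there was no replicate check, so fold changes are descriptions without a p-value, and how precise they are is limited by how few arrays there are. A change of 1.5-fold in either direction, or 0.585 on the log2 scale, is called past 1.5-fold.

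Signals are given as log2 intensity relative to the 75th percentile of the array's own probes, so a value of 0 is the level of that percentile and not absence. Between 40.8% and 42.5% of probes were well above background on an array, and no gene probe was saturated. Spots marked non-uniform, which were left out, numbered 6 on NC, 141 on KD1 and 5 on KD2, of 62976 spots per array. PRMT1 itself had a signal of 6.01 in NC, 2.75 in KD1 and 1.45 in KD2. It was thus at 10.4% of its NC level in KD1 and at 4.24% in KD2. The colorectal epithelial markers EPCAM, KRT8, KRT18, KRT19, CDH1 and CDX2 were well above background on all 3 arrays, while KRT20 and VIL1 were on none and LGALS4 was on 2. Of the fibroblast, immune and endothelial markers, COL1A1, CD14, CDH5 and VWF were above background on all 3 arrays, PTPRC on KD2 alone, and COL1A2, COL3A1, DCN, LUM, PDGFRB, CD3E, PECAM1 and KDR on none, and CD68 was not analysed here.

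The mitotic genes lay below NC more often than above it on each knockdown array. In KD1, 35 of 43 (81.4%) were below their NC value, beside 52.4% of the 19231 genes compared. Their median log2 change was -0.27, beside -0.03 over all genes compared. In KD2, 42 of 43 (97.7%) were below NC, beside 54.1% of the 19421 genes compared, and the median was -0.39 beside -0.05. Among the 17054 genes above background on all 3 arrays, 9146 were below NC in KD1 and 9634 in KD2. KD1 and KD2 share the single NC array, so an unusual value of a gene on NC enters both changes. In bulk RNA, a smaller share of cells in mitosis and less transcript per cell cannot be told apart.

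Past 1.5-fold lower in KD1 were 10 of the 43 genes, or 23.3%, beside 12.8% of all genes compared. Past 1.5-fold higher in KD1 was 1 gene, ZWINT, beside 13.2% of all genes. In KD2, 13 genes, or 30.2%, were past 1.5-fold lower beside 10.7% of all genes, and 0 were past 1.5-fold higher beside 9.56%. Among the 17054 genes above background on all 3 arrays, which is the footing of the 43, 10.8% were past 1.5-fold lower in KD1 and 9.72% in KD2. The count in KD1 depended on where the line was drawn, since 5 genes lay within 0.1 log2 units past it (CCNB1, CENPF, KIF20A, SPC24 and SPC25) and 5 within 0.1 short of it (NUSAP1, HMMR, DLGAP5, ESPL1 and MYBL2). In KD2, TOP2A, DLGAP5 and CDC25C lay as close past it and CENPF, NDC80 and NUF2 as close short of it.

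The direction in KD1 also depended on the scaling between arrays. When arrays were scaled to the spike-in probes the median over all genes was 0.58 in KD1 and that over the mitotic genes 0.35, and with the intensities of the deposited series matrix, which are not scaled between arrays, these medians were 0.35 and 0.12. The mitotic genes thus lay 0.22 below all genes under both, beside 0.24 below under the 75th percentile. In KD2 the median of the mitotic genes was -0.09 under the spike-in scaling and -0.28 with the series matrix, against medians over all genes of 0.24 and 0.05. Under the spike-in scaling the count past 1.5-fold lower was 1 in KD1 and 2 in KD2, beside 1.88% and 3.62% of all genes. Changes below are relative to the 75th percentile.

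**Figure D1:**
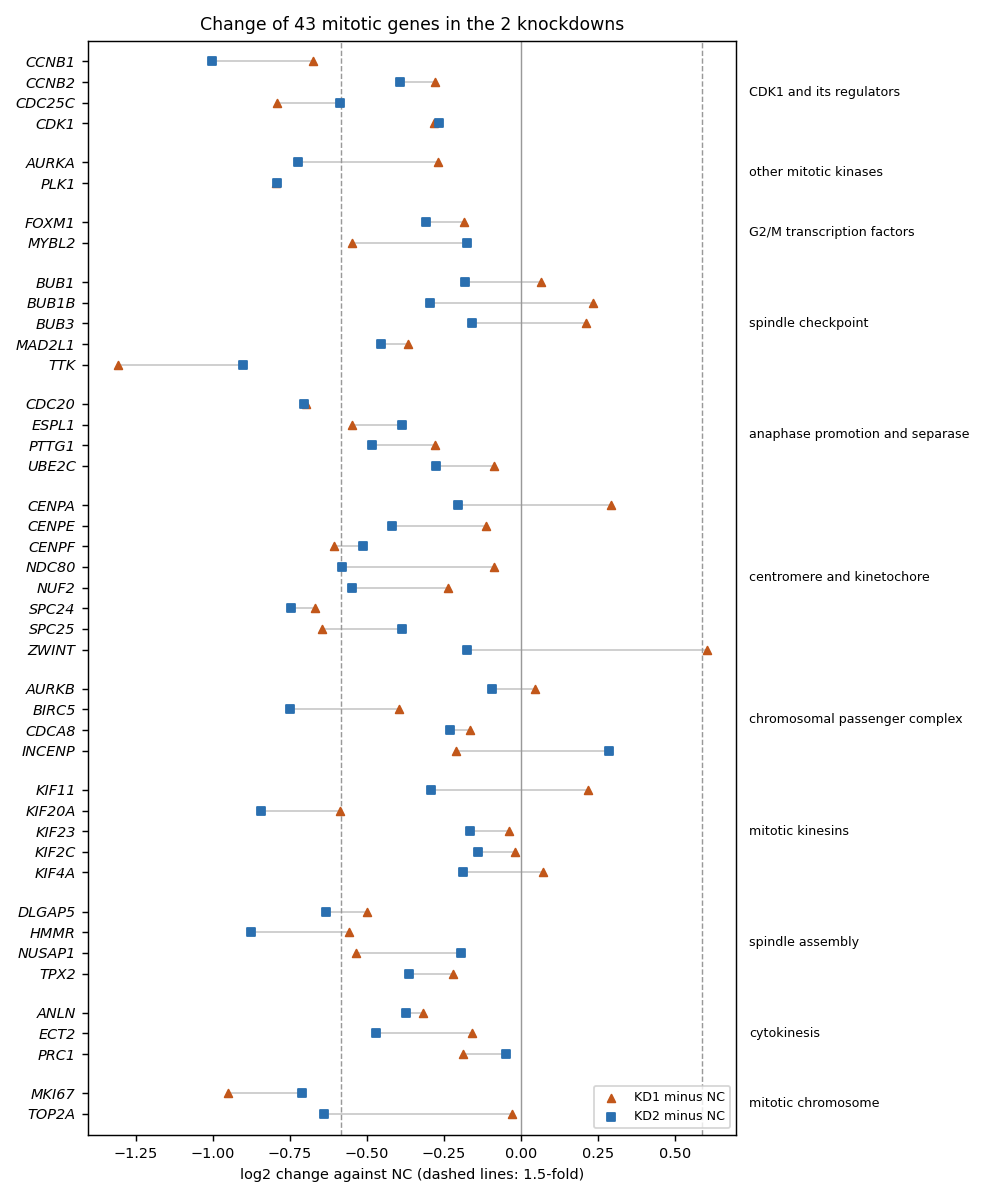
Each row is 1 of the 43 measured genes, grouped by role, and the horizontal axis is the log2 change against NC (triangles, KD1; squares, KD2; 1 array each, no error bars); dashed lines mark 1.5-fold. The squares lie left of 0 in 42 rows and the triangles in 35, where 54.1% and 52.4% of all genes compared lie below 0. In KD1, TTK lies farthest left and ZWINT past the right line. Under spike-in scaling the KD1 median lies at 0.35, above 0.

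**Figure D2:**
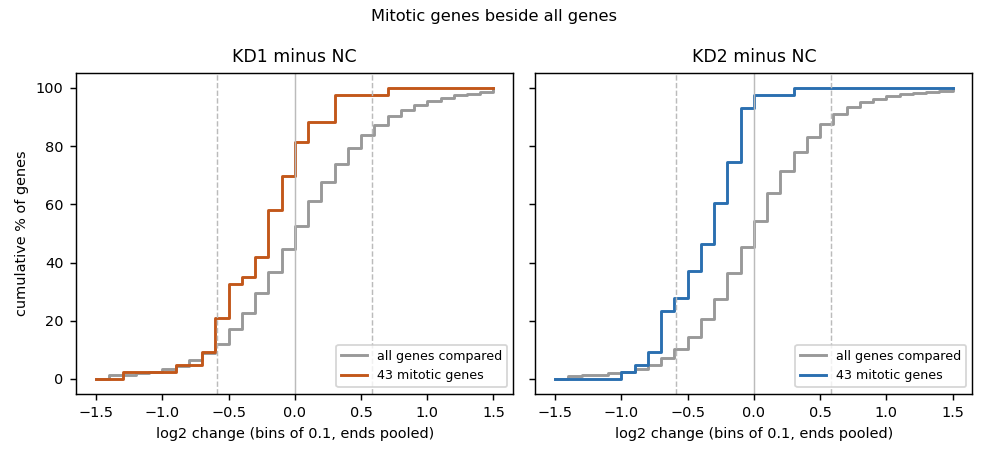
Cumulative percentage of genes (vertical axis) against the log2 change (horizontal axis, bins of 0.1) for the 43 mitotic genes and for all genes compared, in KD1 (left) and KD2 (right). In KD2 the mitotic curve lies left of the curve of all genes from a change of about -0.9 on, with medians of -0.39 and -0.05.

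The promoters of these genes share short runs of letters. The list was defined by gene names and not by promoter letters. These genes are nonetheless known for control by the promoter complexes named above, so a high share is not independent support. Short motifs were searched on both strands of RefSeq promoter windows (GRCh38.p14, 250 bases before to 50 after a start): the cell cycle homology region (CHR), TTTGAA or TTCGAA, the CCAAT box, CCAAT, and the forkhead core, TGTTTAC. The windows covered 37 of the 44 genes with 48 starts, and AURKA, BIRC5, BUB3, FOXM1, TPX2, TTK and UBE2C were not matched. CHR letters stood in 33 of 48 windows, or 68.8%, beside 16.4% of the 35116 windows in the table. CCAAT letters stood in 36 of 48 beside 34.6% of all, both together in 58.3% beside 6.38%, and the forkhead core in 1 window, or 2.08%, beside 3.42%. Over the 30 genes with a single window the CHR share was 80.0%, beside 17.2% of 22114 such genes.

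CHR letters also lay close to the start: 29 of 48 windows, or 60.4%, had a match beginning within 60 bases of it, beside 5.44% of all windows. Of 43 TTTGAA matches 34 read along the gene's strand (TTCGAA reads alike on both). Of 76 CCAAT matches 48 began between 110 and 40 bases before the start. Strand and interval were not counted over all windows, so whether these counts are unusual is not known. A site in overlapping windows of the same gene counts in each window. The letters of both motifs overlapped in 2 windows. The share with CHR letters was 66.7% in the 15 windows of genes past 1.5-fold lower in either knockdown and 69.7% in the other 33. The letters were not particular to the 44 genes: in the 100 other mitotic genes described below, 46 of 113 windows (40.7%) held CHR letters and 26.5% within 60 bases of the start. Of 40 windows of replication genes, 1 held CHR letters and 24 held CCAAT letters. A match of letters is a description of the window and not evidence that a factor binds there.

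The following 120 bases before the start are shown for some of the genes past 1.5-fold lower in KD2, with CHR letters and CCAAT boxes on either strand in capitals. Such genes with a window that are not shown are DLGAP5, CDC25C, TOP2A and SPC24. DLGAP5 has CHR letters in this stretch, CDC25C has them but not at all of its starts, and TOP2A and SPC24 have CCAAT letters only. Forms of the CHR other than TTTGAA and TTCGAA were not searched, so a stretch without these letters is not shown to lack a CHR. Of the stretches shown, PLK1, HMMR, MKI67 and CDC20 have CHR letters. CCNB1 and KIF20A have, of the letters searched, CCAAT only. The stretches are given below. These are PLK1 on the plus strand (chr16:23678769-23678888), HMMR on the plus strand (chr5:163460512-163460631), MKI67 on the minus strand (chr10:128126424-128126543), CDC20 on the plus strand (chr1:43358861-43358980), CCNB1 on the plus strand (chr5:69167030-69167149) and KIF20A on the plus strand (chr5:138178992-138179111), all of GRCh38.p14, each 5′ to 3′ on the gene's strand.
PLK1: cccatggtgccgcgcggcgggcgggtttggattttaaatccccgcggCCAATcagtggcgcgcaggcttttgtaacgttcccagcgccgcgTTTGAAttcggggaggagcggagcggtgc
HMMR: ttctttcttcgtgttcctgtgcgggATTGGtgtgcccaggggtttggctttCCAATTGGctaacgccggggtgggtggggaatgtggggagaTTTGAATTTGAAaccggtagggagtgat
MKI67: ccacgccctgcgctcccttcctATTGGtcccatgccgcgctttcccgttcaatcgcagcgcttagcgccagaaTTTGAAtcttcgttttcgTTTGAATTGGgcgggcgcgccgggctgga
CDC20: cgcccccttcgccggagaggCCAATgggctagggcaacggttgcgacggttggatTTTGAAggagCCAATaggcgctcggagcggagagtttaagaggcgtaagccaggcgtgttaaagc
CCNB1: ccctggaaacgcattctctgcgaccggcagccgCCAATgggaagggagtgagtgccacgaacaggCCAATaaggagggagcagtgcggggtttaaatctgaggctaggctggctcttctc
KIF20A: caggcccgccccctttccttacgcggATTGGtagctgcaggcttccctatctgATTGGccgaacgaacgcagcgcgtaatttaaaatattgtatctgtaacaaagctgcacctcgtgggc
In PLK1 the CHR letters begin 29 bases before the start and the CCAAT box 73 bases before it. HMMR carries CHR letters in tandem, beginning 28 and 22 bases before the start. In MKI67 they begin 47 and 29 bases before the start, and the nearer match shares a base with a reverse-strand CCAAT box.

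**Figure D3:**
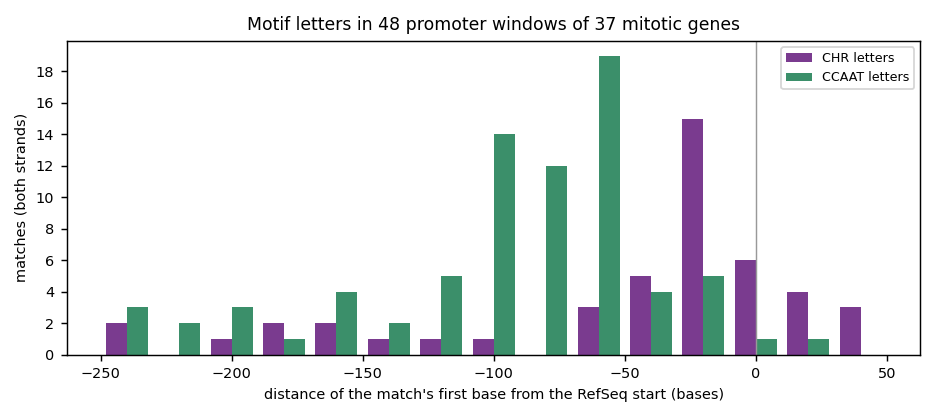
Number of motif matches (vertical axis) against the distance of their first base from the RefSeq start (horizontal axis, bins of 20 bases; negative is upstream) in 48 windows of 37 mitotic genes. CHR letters crowd just upstream of the start and CCAAT letters farther upstream, with 48 of 76 CCAAT matches between 110 and 40 bases before it. Overlapping windows of the same gene count a site in each, and distances over all windows are not shown.

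The genes that drive entry into mitosis were CDK1, its cyclins CCNB1 and CCNB2, and the phosphatases CDC25B and CDC25C, which activate CDK1. Of the 4 measured, 2 were past 1.5-fold lower in KD1 and 2 in KD2, and all 4 were below NC in KD1 and in KD2. CCNB1, cyclin B1, had a signal of 6.29 in NC, 5.61 in KD1 and 5.29 in KD2, so it was at 62.6% and 49.9% of NC. Its other probe, 1658 bases farther downstream on the genome, gave changes of 0.13 and -0.50, so in KD1 the 2 probes differed in sign.

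CDC25C, which removes the inhibitory phosphates from CDK1 at mitotic entry, had 1.73 in NC, 0.94 in KD1 and 1.14 in KD2. These are 57.8% and 66.5% of NC. CDK1 itself was the gene of this group nearest to no change on the mean of both knockdowns. It had 3.92 in NC, 3.63 in KD1 and 3.65 in KD2. Its probe was printed 10 times on each array, and the spots had an SD of 0.033, 0.033 and 0.030, with every knockdown spot below every NC spot. That spread covers the printing and reading of spots and not the cells or the labelling. CCNB2, cyclin B2, was at 82.3% of NC in KD1 and 76.2% in KD2. CDC25B was the gene not measured, because the only spot of its probe was marked as non-uniform on KD1, and with that spot kept its changes were -0.25 and 0.25.

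PLK1 and AURKA are the kinases of centrosome maturation and bipolar spindle assembly. PLK1 had a signal of 3.43 in NC, 2.64 in KD1 and 2.64 in KD2, which is 57.6% and 57.8% of NC. Its other probe lay 8810 bases upstream and gave larger changes, -1.40 and -0.97. AURKA had 3.46 in NC, 3.19 in KD1 and 2.73 in KD2. It was at 83.0% of NC in KD1 and was past 1.5-fold lower in KD2 alone, at 60.5%.

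The transcription factors of the G2/M genes in the list, FOXM1 and MYBL2 (B-MYB), were not past 1.5-fold in either knockdown. FOXM1 was at 87.9% and 80.8% of NC. MYBL2 was at 68.4% in KD1, just short of 1.5-fold, and at 88.6% in KD2.

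Spindle checkpoint genes hold back anaphase until all kinetochores are attached. TTK, the kinase MPS1 that starts checkpoint signalling, had the largest fall of the 43 genes in KD1. Its signal was 1.96 in NC, 0.65 in KD1 and 1.06 in KD2, or 40.4% and 53.5% of NC. TTK was the gene still past 1.5-fold lower in KD1 under the spike-in scaling, with a change of -0.69.

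The other checkpoint genes did not share this size of change. BUB3, which docks the BUB kinases on kinetochores, had 3.79 in NC, 3.995 in KD1 and 3.62 in KD2, above NC in one knockdown and below it in the other. Its brighter probe had a marked spot, and with that spot kept it gave -0.45 in KD1 and -0.21 in KD2, so in KD1 the sign rests on the choice of probe. BUB1 and BUB1B (BUBR1) had changes of 0.06 and 0.23 in KD1 and -0.18 and -0.30 in KD2. MAD2L1 (MAD2), which binds and blocks CDC20, was at 77.5% and 72.9% of NC.

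Anaphase is started by the anaphase-promoting complex with its activator CDC20, which has securin (PTTG1) degraded and frees separase (ESPL1). CDC20 had a signal of 5.83 in NC, 5.13 in KD1 and 5.13 in KD2. It was at 61.7% and 61.4% of NC, past 1.5-fold lower in each, and the other 3 genes of this group were not. ESPL1 was at 68.3% and 76.5% of NC and PTTG1 at 82.4% and 71.5%. UBE2C, the ubiquitin-conjugating enzyme of the complex, was nearest to no change, with 6.54 in NC, 6.45 in KD1 and 6.26 in KD2.

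**Figure D4:**
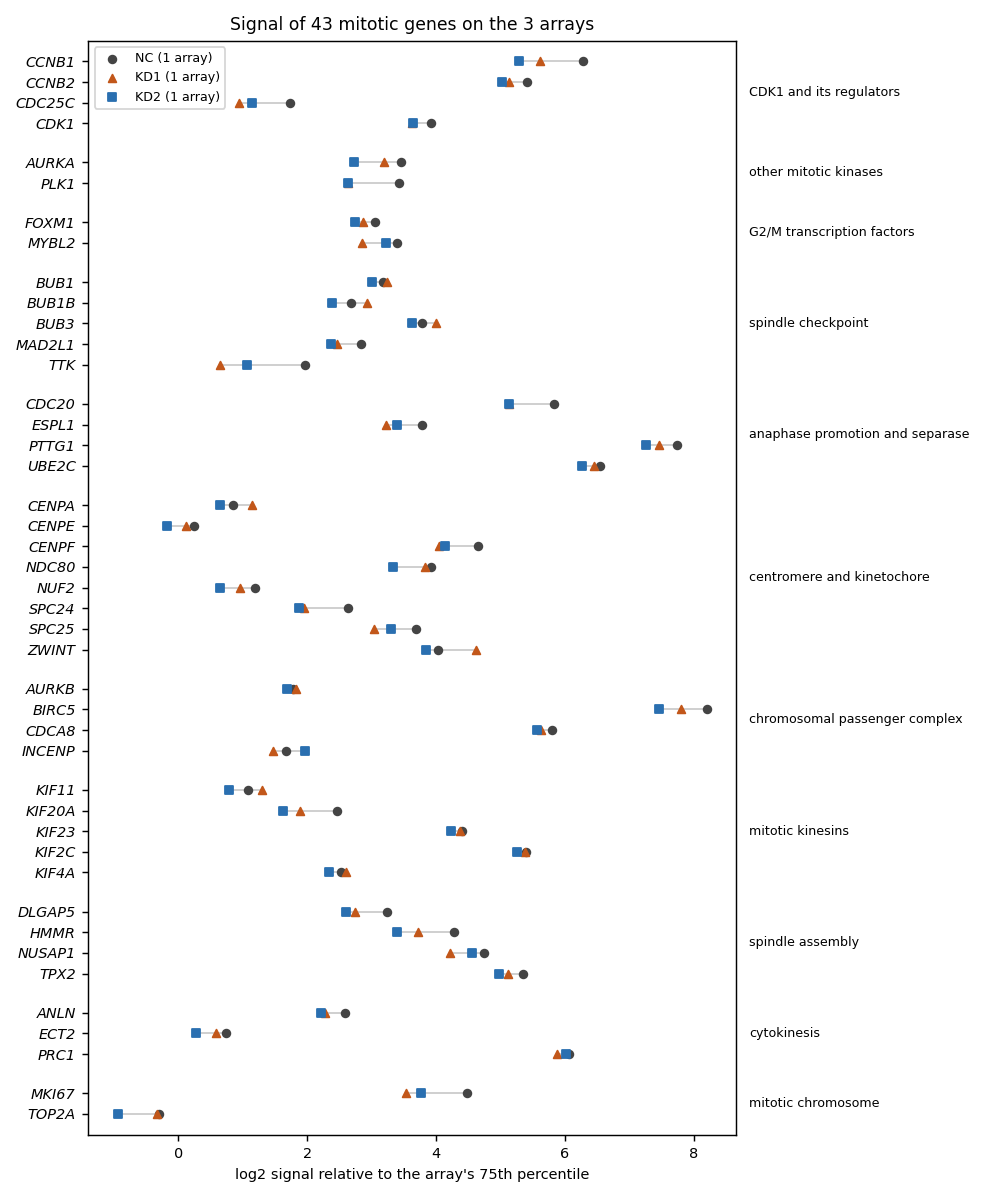
Log2 signal relative to the array's 75th percentile (horizontal axis) of the 43 measured genes on NC (circles), KD1 (triangles) and KD2 (squares), 1 array each, grouped by role. Both knockdown symbols lie left of the NC circle for genes such as TTK, PLK1, CDC20 and MKI67, while ZWINT has its KD1 triangle to the right.

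Of the 8 centromere and kinetochore genes, 3 were past 1.5-fold lower and 1 higher in KD1, and 1 was lower in KD2. The NDC80 complex, which holds the plus ends of microtubules, is built from NDC80, NUF2, SPC24 and SPC25, and all 4 were below NC in KD1 and in KD2. SPC24 had 2.63 in NC, 1.96 in KD1 and 1.88 in KD2, or 62.9% and 59.6% of NC. A second, dimmer probe of SPC24 gave changes of -0.80 in KD1 and -0.42 in KD2, the latter short of 1.5-fold. SPC25 had 3.69 in NC, 3.04 in KD1 and 3.30 in KD2, or 63.9% and 76.5% of NC. NDC80 and NUF2 showed a different pattern from the SPC pair, with 94.1% and 84.9% of NC in KD1 and 66.9% and 68.4% in KD2.

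CENPF, a large coiled-coil protein of the outer kinetochore, had 4.65 in NC, 4.04 in KD1 and 4.14 in KD2. It was at 65.7% of NC in KD1 and at 70.1% in KD2, where it was not past 1.5-fold, and under the spike-in scaling its change in KD1 was 0.02. A second, dimmer probe of CENPF gave changes of -1.01 in KD1 and -0.66 in KD2, past 1.5-fold lower in each. CENPA, the histone H3 variant that marks centromeres, had 0.85 in NC, 1.15 in KD1 and 0.65 in KD2. It was above NC in KD1 and below it in KD2. On the mean of both knockdowns it was nearest to no change in this group, because opposite signs cancel. NDC80 was nearer to NC in KD1 and ZWINT in KD2. CENPE, a kinesin that moves chromosomes to the metaphase plate, was printed 10 times and was at 92.4% and 74.8% of NC, with a spot SD of 0.068 or less on each array.

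ZWINT, which links the outer kinetochore to the checkpoint's ZW10 complex, was the exception in KD1. Its signal was 4.03 in NC, 4.63 in KD1 and 3.85 in KD2, so KD1 was above NC at 152% and KD2 below it at 88.6%. A second probe of ZWINT gave changes of 0.91 and -0.04. The change at the brighter probe was close to the line, at 0.60, and under 4 other settings (the 75th percentile over probes above background or over probes usable on all arrays, quantile normalization, and outlier spots kept) ZWINT was no longer past 1.5-fold.

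The chromosomal passenger complex corrects faulty attachments and consists of the kinase AURKB with INCENP, survivin (BIRC5) and borealin (CDCA8). BIRC5 was the one of the 4 past 1.5-fold, in KD2. Its signal was 8.21 in NC, 7.81 in KD1 and 7.45 in KD2, or 76.0% and 59.4% of NC, and the spots of its probe, 10 per array or 9 on KD2, had an SD of 0.043 or less. AURKB was nearest to no change, at 1.78 in NC, 1.82 in KD1 and 1.68 in KD2.

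INCENP was the single gene of the 43 above NC in KD2. It was at 86.3% of NC in KD1 and at 122% in KD2. Its 10 spots per array ranged from 1.49 to 1.82 in NC, from 1.31 to 1.55 in KD1 and from 1.91 to 1.9995 in KD2, so the KD2 spots did not overlap those of the other arrays, while NC and KD1 overlapped. Whether spots of different arrays overlap rests on the scaling between arrays. CDCA8 was at 89.1% and 85.2% of NC.

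Of the 5 mitotic kinesins, motor proteins that slide, cross-link or depolymerise microtubules, only KIF20A was past 1.5-fold at the brightest probe. KIF20A, which works in the central spindle, had 2.47 in NC, 1.88 in KD1 and 1.63 in KD2, or 66.6% and 55.8% of NC. Its change in KD1 was 0.04 under the spike-in scaling. KIF11 (Eg5), which pushes the spindle poles apart, was at 1.09 in NC, 1.30 in KD1 and 0.79 in KD2, above NC in one knockdown and below it in the other.

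KIF4A was the gene with a second probe past 1.5-fold in the direction opposite to its brightest one, in KD1. The brighter probe had 2.53 in NC, 2.60 in KD1 and 2.34 in KD2, while a probe 14007 bases upstream had 1.03, 0.33 and 0.86, which is a change of -0.69 in KD1 and -0.17 in KD2. KIF2C and KIF23 had the smallest changes of the kinesins at their brightest probes, within 0.17 log2 units of NC in each knockdown.

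Spindle assembly factors bind and organise microtubules around chromosomes. HMMR, a centrosomal and microtubule-binding protein, had 4.28 in NC, 3.72 in KD1 and 3.40 in KD2, or 67.9% and 54.5% of NC. DLGAP5 (HURP), which stabilises kinetochore fibres, had 3.24 in NC, 2.74 in KD1 and 2.61 in KD2, or 70.8% and 64.5%. Both were past 1.5-fold lower in KD2, and in KD1 both were just short of it. TPX2, which activates AURKA at the spindle, was nearest to no change on the mean of both knockdowns. It had 5.35 in NC, 5.12 in KD1 and 4.98 in KD2. NUSAP1 was at 68.9% and 87.4% of NC, and was nearer to NC than TPX2 in KD2.

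The 3 cytokinesis genes were below NC in KD1 and in KD2 and none was past 1.5-fold. PRC1, which bundles the microtubules of the central spindle, had 6.07 in NC, 5.88 in KD1 and 6.02 in KD2. ANLN, a scaffold of the contractile ring, was at 80.2% and 77.2% of NC, and ECT2, the exchange factor that activates RhoA there, at 89.5% and 72.2%.

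MKI67 and TOP2A act on mitotic chromosomes, the first encoding the surface protein Ki-67 and the second the topoisomerase that untangles sister DNA. MKI67 had 4.48 in NC, 3.53 in KD1 and 3.77 in KD2, or 51.7% and 61.2% of NC. Its 2 other probes had changes of -0.47 and -1.68 in KD1 and of -0.67 and -0.999 in KD2, so all 3 were below NC in each knockdown. TOP2A had -0.30 in NC, -0.33 in KD1 and -0.94 in KD2, which is 97.96% and 64.2% of NC.

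The size of a change in KD1 varied with where along the gene the probe lay. Of the 8 mitotic genes with more than 1 probe above background on all arrays, the most upstream probe was lower relative to NC than the most downstream one in 7 in KD1 and in 5 in KD2. The median difference between these probes was -0.50 in KD1 and -0.16 in KD2. The step was largest for MKI67 in KD1, where the most upstream probe changed by -1.68 and the most downstream by -0.47, and ZWINT was the exception with 0.91 and 0.60.

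The same difference was present over all genes. Of 3737 genes with such probes, the upstream one was the lower in 61.9% in KD1 and in 53.6% in KD2, with medians of -0.15 and -0.03. The median change of the downstream probes alone was -0.25 in KD1 and -0.51 in KD2 over the 8 mitotic genes, beside 0.12 and -0.02 over the 3737 genes. This comparison was made after the values were seen, and the part of probe position in the changes of the mitotic genes was not tested.

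**Figure D5:**
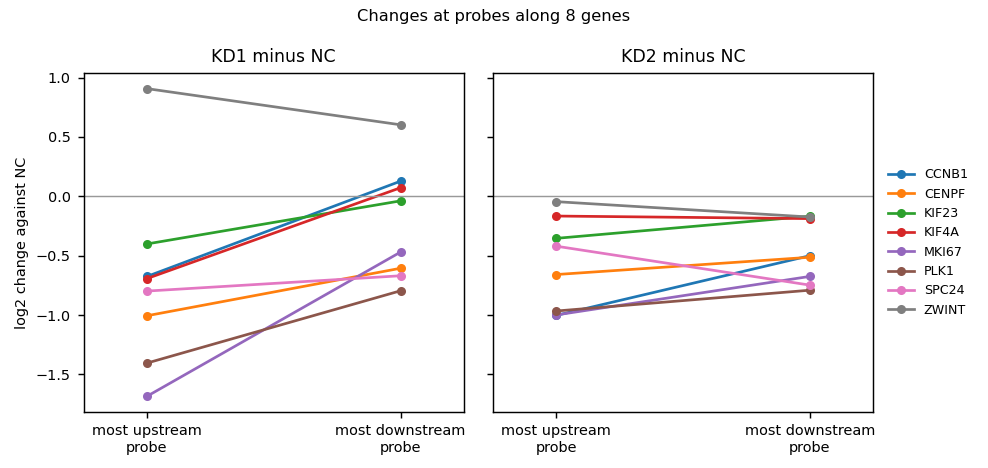
Log2 change against NC (vertical axis) at the most upstream and most downstream probe of the 8 mitotic genes with more than 1 probe above background, joined by a line per gene, in KD1 (left) and KD2 (right). In KD1 the upstream probe is the lower for all genes but ZWINT, with a median difference of -0.50 beside -0.16 in KD2.

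Between the knockdowns themselves, 2 of the 43 genes, ZWINT and TOP2A, were past 1.5-fold, or 4.65%, beside 18.7% of the 19544 genes compared. Both were higher in KD1, by 0.78 and 0.61. Among the 17054 genes above background on all arrays, 9.01% were past 1.5-fold higher in KD1 and 6.23% lower. Differences of the 43 ranged from -0.50 for INCENP to 0.78 for ZWINT. Of the 43, 31 were higher in KD1 and 12 in KD2, beside 10183 and 9300 of all genes compared. The median was 0.13 beside 0.02 over all genes. The spread of the difference, a robust SD from the median absolute deviation, was 0.27 over the 43 genes and 0.38 over the 17054 genes that were above background on each array. The number of the 43 genes past 1.5-fold between the knockdowns was 9 with median scaling, 15 with spike-in scaling and 14 with the series matrix. The shares of all genes were 25.8%, 30.8% and 28.1%.

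The rest of the mitotic machinery was read from 100 other genes of the same processes. In KD1, 18 were past 1.5-fold lower and 12 higher with a median of -0.17, beside 12.8% and 13.2% of all genes. In KD2, where 98 were measured, 18 were lower and 5 higher with a median of -0.19, beside 10.7% and 9.56%. The same shares of all genes apply to the shorter lists within these 100. The inner centromere and outer kinetochore list had 7 of 25 lower and 3 higher in KD1 and 5 lower and 0 higher in KD2. In it CENPC, which joins centromeric chromatin to the kinetochore, was at 48.2% and 61.2% of NC. CENPT, which recruits the NDC80 complex in parallel, was at 47.7% and 58.7%. KNL1 (CASC5 on the array), the platform for the BUB proteins, was at 46.5% and 57.8%, and MIS18A, needed to load CENPA, at 58.1% and 66.3%.

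Shugoshins protect centromeric cohesion: SGO1 (SGOL1 on the array) was at 43.99% and 56.6% of NC and SGO2 (SGOL2) at 62.4% and 52.6%. ZW10, a checkpoint protein of the kinetochore, lay on the other side at 200% and 158%. SMC2, the core of both condensins, was at 56.6% and 53.3%, ASPM, a spindle pole protein, at 63.3% and 56.6%, and HAUS4, of the augmin complex, at 66.0% and 61.6%. WEE1, the kinase that holds CDK1 inactive, was above NC at 162% and 188%, and LIN9, a MuvB subunit of the complexes on CHR promoters, at 202% and 161%. The anaphase-promoting complex list, with 1 of 14 lower and 2 higher in KD1 and 1 lower and 1 higher in KD2, had medians of 0.17 and -0.13.

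Replication genes, which peak earlier in the cycle, had 3 of 35 past 1.5-fold lower and 1 higher in KD1 and 3 lower and 2 higher in KD2, with medians of -0.18 and -0.13. MCM5, of the replicative helicase, was at 40.4% and 46.1% of NC, CDT1, which loads that helicase, at 48.1% and 65.4%, and TIPIN, of the fork protection complex, at 152% and 159%. Of 22 measured genes of the G1/S switch, 4 were lower and 3 higher in KD1 and 1 lower and 4 higher in KD2, with medians of -0.02 and 0.09. CDKN1B, the CDK inhibitor p27, was at 54.5% and 60.8% of NC, CDK6, the D-cyclin partner, at 170% and 161%, and E2F3, an activator of S-phase genes, at 170% and 158%. No test between these lists and the mitotic genes was possible with 1 array per group.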

How the data were processed

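Total RNA of HCT116 cells was hybridised to 3 one-colour arrays (Cy3), 1 for each of NC, KD1 and KD2, on 1 slide. The authors deposited the scanner output of Agilent Feature Extraction 10.7.1.1, per the labels, with 1 background-corrected intensity per spot and no scaling across arrays. Their series matrix, also deposited, gives the same intensity values averaged per probe and was used on the log2 scale as an alternative. Probe positions in the files refer to hg19, and promoter positions to GRCh38.p14. Symbols were matched to RefSeq windows by name.

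Control spots and those that the scanner software marked non-uniform or outlying were left out (130 probes lost). Log2 intensities of repeated spots were averaged, and each array's 75th percentile was subtracted. Genes entered a comparison if well above background on 1 or both arrays. On a dim array its value was set to the lowest signal above background there if its own was lower. The threshold of 1.5-fold follows the study's methods, whose p-value needs replicates. Values on all 3 arrays were given for every listed gene past 1.5-fold in either knockdown, for the gene whose mean change over both knockdowns was nearest to 0 in each role with 3 or more members (opposite signs cancel in it), and for genes with another probe past 1.5-fold in the opposite direction. Genes of other lists were named when past 1.5-fold in 1 direction in both knockdowns and above background on all arrays. The members and lists were chosen with earlier results of these data known. The scaling, the gene values and the fold counts were tested on arrays simulated from the NC array with small added noise. All simulated arrays carried the background flags of NC. The floor and genes detected on 1 array alone were therefore not covered, nor was the spread between real arrays. Alternatives covered background correction (normexp, offset 50), scaling, filters, probes, outlier spots and a 2-fold threshold. Python 3.11.15, pandas 2.3.3, R 4.3.3 and limma 3.58.1 were used.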

Additional observations from a re-analysis of the deposited data

Results flagged for a closer look

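ZWINT lay above NC in KD1 (0.60 on the log2 scale) and below NC in KD2 (-0.17), and its signal was 0.78 higher in KD1 than in KD2. Its second probe gave 0.91 and -0.04, a difference of 0.95. With 1 array per group the difference was not tested.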

How the results depend on the processing

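Of 13 alternatives, 12 were planned and 1, the 75th percentile over probes usable on all 3 arrays, was chosen after seeing the data. The median change of the mitotic genes in KD1 changed sign to 0.35 under spike-in scaling (8 probes) and to 0.12 with the series matrix values, and in KD2 it stayed between -0.54 and -0.09. Relative to all genes, the KD1 median ran from -0.25 to -0.06 and the KD2 median from -0.34 to -0.24. The end at -0.06 came from the setting with no filter and no floor. There undetected genes were counted, and the KD1 median over all genes was -0.21, while the mitotic genes kept their values. Genes past 1.5-fold lower in KD1 (10) numbered 4 with normexp (4.64% of all genes), 5 with median scaling (9.28%), and 1 with spike-in scaling (1.88%), with the series matrix (3.58%) and at 2-fold (3.33%). Those higher in KD1 (1) numbered 0 with the 75th percentile over probes above background or usable on all arrays, with quantile normalization, with outlier spots kept and at 2-fold, 10 with spike-in scaling (49.5%) and 5 with the series matrix (32.5%). Those lower in KD2 (13) numbered 2 with spike-in scaling (3.62%) and 1 at 2-fold (2.51%). Those past 1.5-fold between the knockdowns (2) numbered 9 with median scaling (25.8%), 15 with spike-in scaling (30.8%), 14 with the series matrix (28.1%), 1 with outlier spots kept or the percentile over usable probes, and 0 at 2-fold (4.78%). Of 600 recomputed gene changes, 547 kept their value within 0.38 log2 units, the spread between knockdowns, 51 moved further, of which 23 under spike-in scaling and 25 with the series matrix, and 2 of those past 1.5-fold changed sign, CENPF (0.016) and KIF20A (0.035) in KD1 under spike-in scaling. The 3 others were BUB3 in KD1 with outlier spots kept (-0.45) and, in KD1 with the mean over probes, CCNB1 (-0.27) and KIF4A (-0.31). Part of the 547 was fixed in advance. The filter settings could not change a gene above background on all arrays, nor could averaging probes change a gene with 1 probe. Spike-in scaling adds 1 constant to all genes of a comparison, and in KD2 that constant was below 0.38. The cause of the changes that moved or reversed was not tested. No paired analysis was possible because each group has 1 array.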
